A study of Drosophila melanogaster with 2 samples.

Results

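The 10 Polycomb group genes ph-p, ph-d, Pc, Psc, Sce, E(z), esc, Su(z)12, pho and Scm were taken by name from the 13968 annotated protein-coding genes on the chromosome arms of Drosophila melanogaster, and their peaks were read from a chromatin immunoprecipitation of the CG14667 protein. The material was whole embryos, 0 to 24 h old, of a strain labelled CG14667-GFP that expresses CG14667 fused to eGFP, and an antibody against GFP pulled down sonicated chromatin in a size range of 200 to 800 bp. There were 2 biological replicates, recorded as separate samples, and both belonged to 1 group, so there was no condition to compare. The promoter and the number of copies of the fusion were not given in the sources used here, and embryos of all ages and tissues were mixed, so a peak present in few cells and a weak peak in many cannot be told apart.

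Polycomb group proteins keep developmental genes silent after the early patterning signals have gone. Polycomb repressive complex 2 (PRC2) methylates histone H3, and Polycomb repressive complex 1 (PRC1) includes a subunit that binds this mark and another that ubiquitinates histones. DNA-binding partners bring both complexes to Polycomb response elements in the fly genome, and several Polycomb group genes are themselves known targets of the group. ph-p and ph-d are a tandem duplicate on the X chromosome whose proteins are both PRC1 subunits. In these data the protein pulled down was CG14667, not a Polycomb group protein, so the peaks show where chromatin carrying CG14667-eGFP was enriched at these genes.

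The signal of a peak is an enrichment over a control, as given by the authors' peak caller. Its scale is not stated, so a signal was read only against other signals of the same list or as the 2 replicates' values at the same peak. The conservative list of 3083 peaks draws on both replicates, and ranks below are places in that list by signal, with 1 the strongest. The summit is the position of highest signal in a peak. Each replicate also has a thresholded list of its own, with 2699 peaks for replicate 1 and 2146 for replicate 2, and a long ranked list of candidates that mostly fall short of the threshold. The irreproducible discovery rate (IDR) of a candidate is an estimate of the share of peaks ranked at least as high that would not be reproducible. For a single replicate, the rankings that were compared are not stated.

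The strongest peak of the set had its summit in the first intron of ph-p, in a stretch that ph-d lacks. That stretch is shown first because it separates the copies: in the alignment of the genes, 208 bp of ph-p stood against 15 bp upstream of ph-d. The lines give both stretches 5′ to 3′ on the coding strand, with 25 aligned bases on either side in lower case and the bases without an aligned partner in capitals.
ph-p unmatched stretch (chrX:2137240-2137497, minus strand): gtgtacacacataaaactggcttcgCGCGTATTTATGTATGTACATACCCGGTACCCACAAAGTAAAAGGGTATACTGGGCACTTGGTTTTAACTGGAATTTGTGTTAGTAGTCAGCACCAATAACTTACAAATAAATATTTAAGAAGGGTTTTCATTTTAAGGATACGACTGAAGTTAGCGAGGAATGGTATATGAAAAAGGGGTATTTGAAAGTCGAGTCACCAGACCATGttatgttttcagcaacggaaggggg
ph-d counterpart (chrX:2123672-2123736, minus strand): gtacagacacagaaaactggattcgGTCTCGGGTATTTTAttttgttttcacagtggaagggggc
The GC content was 39.2% over the 258 bp of the ph-p line and 44.6% over the 65 bp of the ph-d line. All sequences printed are from the RefSeq copy of genome Release 6, the build that the authors call dm6.

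The peak between the genes and the ph-p peaks of the next intron had summits in the following sequences, each 101 bp long and centred on the summit, with the bases within 10 bp of the summit in capitals. They are shown because their summits fall in the parts of the locus where the copies could not be aligned, although the 3′ end of the line upstream of ph-d reaches into an aligned block.
upstream of ph-d (chrX:2124020-2124120, minus strand): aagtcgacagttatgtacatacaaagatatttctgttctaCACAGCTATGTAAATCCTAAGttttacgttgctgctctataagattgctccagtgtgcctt
ph-p intron, proximal (chrX:2135311-2135411, minus strand): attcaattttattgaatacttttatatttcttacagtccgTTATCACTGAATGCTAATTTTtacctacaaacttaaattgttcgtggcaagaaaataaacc
ph-p intron, distal (chrX:2134408-2134508, minus strand): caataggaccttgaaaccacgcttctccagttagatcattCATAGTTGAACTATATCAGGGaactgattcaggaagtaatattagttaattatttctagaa
The GC content was 36.6% upstream of ph-d, 26.7% at the proximal and 33.7% at the distal ph-p intron summit. The E(z) summit stood in a short first intron rich in A and T, shown whole (65 bp) with the bases within 10 bp of the summit in capitals.
E(z) first intron (chr3L:10637977-10638041, minus strand): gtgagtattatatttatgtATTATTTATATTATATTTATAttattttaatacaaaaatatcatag
Of the 65 bp of the E(z) line, 10.8% were G or C.

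Conservative summits lay within 500 bp of a start of 3 of the 10 genes, namely ph-p, ph-d and E(z). The same rule picked out 1755 of the 13968 protein-coding genes (12.6%). Counting summits anywhere inside the gene added Psc, which made 4 of 10 against 8.61% of all protein-coding genes. Longer genes have more room for a summit, and this share was not matched for length. Psc (14998 bp) and ph-p (12162 bp) were the longest of the 10. Within 10 kb of the gene the count was 7 of 10, with Pc, Su(z)12 and Scm added, and 49.2% of all protein-coding genes had a summit this near. Sce, esc and pho had none within 10 kb. When a peak in each replicate's own list was required within 500 bp of a start, with the peaks overlapping, ph-p and E(z) remained, which is 2 of 10 against 8.26% of all protein-coding genes. For ph-p this rested on the second strongest peak, since replicate 2's summit of the strongest was at 506 bp. With 10 genes 1 gene more or less moves each share by 10 percentage points, and no test was made on these counts because the genes were picked with earlier results known.

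The 14 peaks within 10 kb of these genes had signals from 65.7 to 1512 with a median of 256.8. The median over the conservative peaks on the arms was 115.4. Only 8 of the 14 had summits inside a gene of the set or within 500 bp of its start. The rest lay outside the genes, and those counted for Pc, Su(z)12 and Scm were near starts of other genes. Summaries of the 14 peaks here and below include them. Of the 14, 10 stood above the median of the list and 4 below it, and 7 of the 14 were on X at ph-p and ph-d. Both replicates' own lists held 10 of the peaks, 1 was in the list of replicate 1 alone and 3 were in neither. The 3 last were the weakest peaks of the set, at ph-p and outside Scm and Su(z)12.

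**Figure D1:**
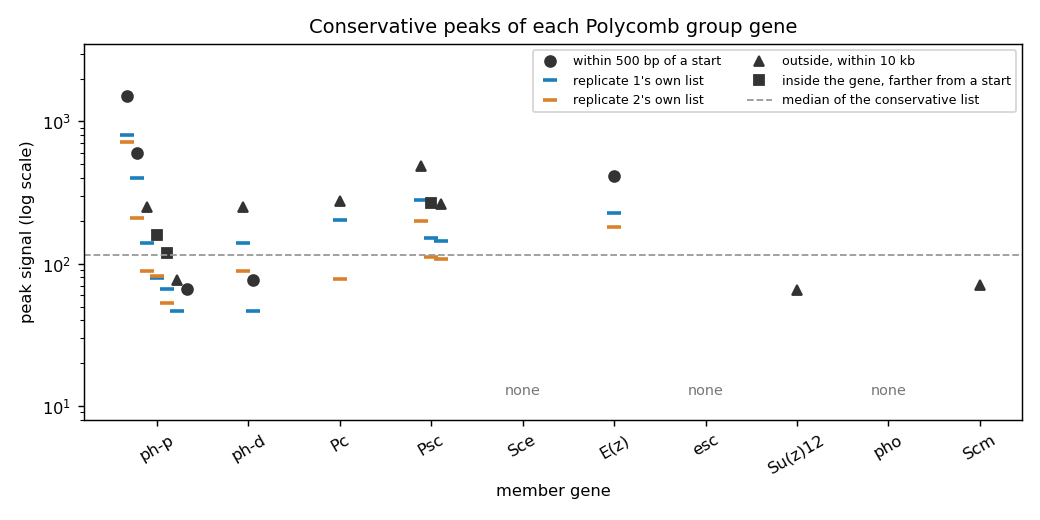
Signal (log scale) of each conservative peak within 10 kb of the 10 genes, with dark symbols for both replicates together and coloured bars for the same peak in each replicate's own list, where present; the dashed line is the median of the conservative list, 115.4. ph-p holds the highest value at 1512, the ph-d peaks at 249 and 76.5 are drawn for ph-p too because they lie within 10 kb of it, and Sce, esc and pho have no peak.

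Among the PRC1 genes, ph-p (FBgn0004861; minus strand of X, 2126210 to 2138371, 12162 bp, with 3 annotated starts) carried 5 of the 14 summits. Its protein and that of ph-d carry a domain with which Polycomb complexes join into larger assemblies. The strongest peak spanned 2137206 to 2137522 and reached 1512, rank 6 of 3083, with 796 in replicate 1 (rank 6 of its own list) and 721 in replicate 2 (rank 8). The replicates were close at this peak. Its summit, 2137350, lay in an intron of the long transcript and 495 bp upstream of the middle start, just inside the 500 bp rule, and replicate 2's own summit was at 506 bp.

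The next ph-p peak spanned 2137736 to 2138030 with a signal of 603 and rank 89, and its summit lay in the 5′ untranslated region of the long transcript, 457 bp downstream of the outermost start. Its signal was 399.6 in replicate 1 and 211 in replicate 2, a log2 ratio of 0.92. Over all 1701 conservative peaks present in both own lists, the 5 and 95 percentiles of the log2 ratio were -0.42 and 0.86, so this ratio lay above that range. The summits of the 603 and 1512 peaks were 564 bp apart.

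Downstream, 2 further peaks lay in the ph-p intron that follows the short first exons. The peak spanning 2135193 to 2135528 reached 160.1 (79.1 in replicate 1, 82.0 in replicate 2), 1261 bp from the nearest start, and that at 2134290 to 2134625 had 118 (66.2 and 53.1), 2164 bp from it. Both were in both own lists. The last ph-p peak, at 2136358 to 2136693, had its summit 96 bp from the innermost start, nearer than any other ph-p summit, but a signal of only 66.7 and rank 2794. It was in neither own list and not in the longer thresholded list of 3552 peaks that the authors also made, and its candidates were at 31.4 in replicate 1 (IDR 0.249) and 41.1 in replicate 2 (IDR 0.340).

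No shorter protein-coding gene held as many summits as ph-p. Of all 13968 protein-coding genes, 40 (0.286%) had 5 or more summits inside, with a median length of 43810 bp. The shortest of the others was CG14434, at 15286 bp with 7 summits. Per 10 kb, ph-p had 4.11 summits, and 5 of the 118 genes with at least 3 summits reached that density, ph-p among them. Counting summits within 500 bp of a start, ph-p had 3, a number that 11 genes (0.0788%) reached. Both ph-p counts include the 66.7 peak, which was in neither own list. Each replicate's own list had 4 summits inside ph-p. Near a start, replicate 1's own list had 2 and replicate 2's had 1. How other genes compare in those lists is not given. Among the 1755 genes with a peak at a start, the strongest ph-p peak ranked 6, that of E(z) 173 and that of ph-d 1576.

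ph-d (FBgn0004860; minus strand of X, 2115727 to 2123286, 7560 bp, with 2 annotated starts) had 2 peaks. That at its outer start, 2123007 to 2123342, had its summit 111 bp downstream of the start, in the 5′ untranslated region, with a signal of 76.5 and rank 2496. Replicate 1's own list held it at 46.6, and in replicate 2 there was only a candidate at 31.4 with an IDR of 0.157. The second peak, 2123957 to 2124144, was 784 bp upstream of ph-d, between the genes, with a signal of 249, rank 473, and values of 139 and 89.0 in the replicates. It lay 2140 bp past the end of ph-p, outside the 500 bp rule for either gene.

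**Figure D2:**
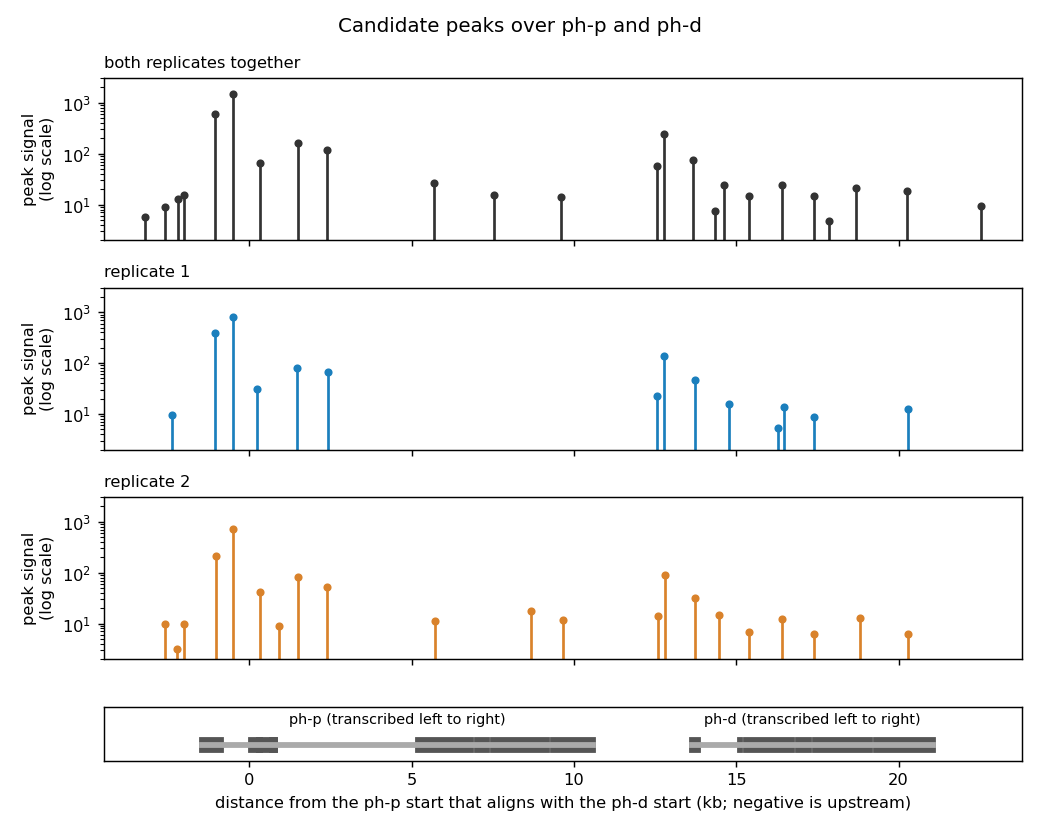
Signal (log scale) of all candidate peaks along ph-p and ph-d for both replicates together and for each replicate, against the distance in kb from the ph-p start that aligns with the ph-d start; exons are dark bars. The 1512 and 603 peaks upstream of that ph-p start stand above all others in each panel, and the highest candidate between the genes is at 249.

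Across both genes and the 2923 bp between them, 22645 bp in all, the series' ranked list held 19 candidates, of which 7 were in the conservative list. The candidates over the 3′ parts of both genes were all low, at or below 27.0 in the series' list. The difference between the strongest peak of ph-p and the peak at the ph-d start was 1435 in the conservative list, 749.5 in replicate 1 and 690 between the candidates of replicate 2. In both replicates the ph-p value was the higher, at 796 against 46.6 and at 721 against 31.4, and with 1 value per gene and replicate no test was made. This sets the strongest of 5 ph-p peaks against the weaker of the 2 ph-d peaks. The summits nearest a start did not keep that order, with 66.7 at ph-p (96 bp) and 76.5 at ph-d (111 bp) in the conservative list. The candidates there were at 31.4 and 46.6 in replicate 1 and at 41.1 and 31.4 in replicate 2. Against the stronger ph-d peak, upstream of the gene at 249, ph-p was still the higher, at 796 against 139 in replicate 1 and 721 against 89.0 in replicate 2.

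Placing the copies side by side showed where the sequence is shared and where the peaks are. Local alignment gave 6 colinear blocks, the longest of 4480 bp at 92.0% identity over the 3′ parts of the genes. The blocks covered 47.0% of ph-p and 61.1% of ph-d. The ph-d start at 2123286 aligned base for base with the ph-p start at 2136855, inside a block of 529 bp at 90.7% identity, with blocks of 387 bp (70.5%) and 358 bp (81.0%) farther upstream. None of the 7 conservative summits of the genes lay in a block, 0 of 7 also with a more sensitive search. The peaks themselves did reach into blocks, with 66.8% of the 603 peak and 34.4% of the 1512 peak of ph-p inside them. At ph-d, 51.1% of the 249 peak and 48.2% of the 76.5 peak were inside. The remaining ph-p peaks had none in the main search and at most 8.63% in the sensitive one.

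Measured from the aligned start, the ph-p summits were 495 bp upstream (1512), 1059 bp upstream (603) and 329, 1494 and 2397 bp downstream (66.7, 160.1 and 118). Those of ph-d were 784 bp upstream (249) and 111 bp downstream (76.5). Since no summit lay in a block, none had an aligned base in the other copy. These distances therefore cannot show whether a ph-p summit corresponds to a ph-d summit. In the 15 bp of ph-d that stood against the 208 bp of the strongest ph-p summit, no candidate of the series' list lay within 100 bp. The 603 peak of ph-p and the 249 peak of ph-d fell in facing unaligned stretches, of 98 bp in ph-p and 209 bp in ph-d. The other 3 ph-p summits and the summit at the ph-d start fell in facing unaligned stretches of 5244 bp and 1663 bp.

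**Figure D3:**
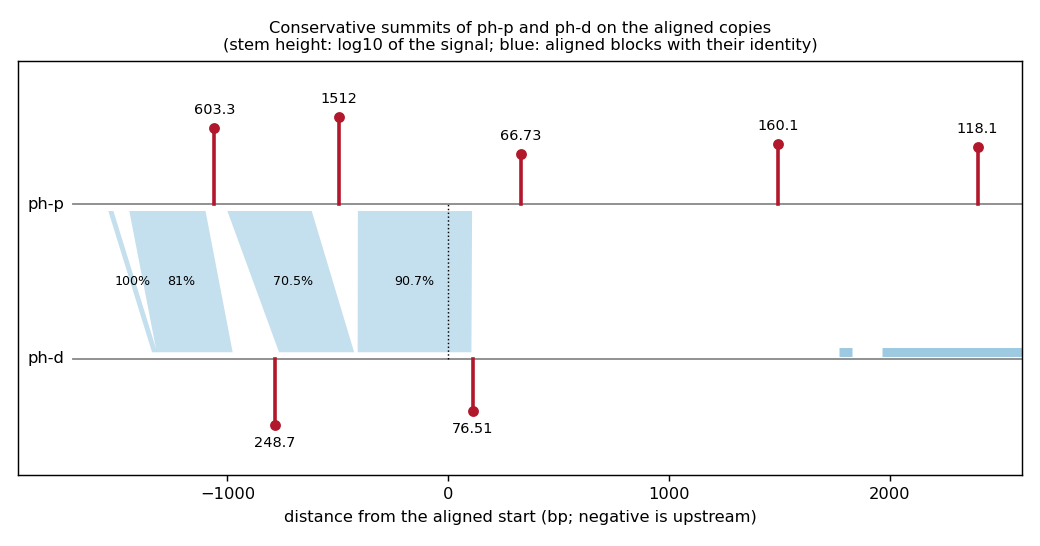
Conservative summits of ph-p (top) and ph-d (bottom) by distance in bp from the aligned start, with stem height as log10 of the signal, the signal printed, and blue areas joining aligned blocks with their identity in percent; blue bars at the lower right align with ph-p beyond the range drawn. All 7 summits stand outside the blocks, and the 1512 summit, 495 bp upstream, has none opposite it. Parts of the 1512, 603, 249 and 76.5 peaks, whose widths are not drawn, lie in blocks.

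Reads from sequence present in both copies can be placed on either or discarded, and the read length was not given in the sources used here. Every 36-base and every 50-base word in all 14 peaks occurred once in the reference genome (100%). Over the whole genes 67.8% of the 36-base words of ph-p and 67.5% of those of ph-d were unique, and 92.6% in the 1 kb upstream of ph-d. Uniqueness was not measured for the shared 3′ parts alone, and the part of read placement in the low candidates there was not tested.

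Of the remaining PRC1 genes, Psc (FBgn0005624; minus strand of 2R, 12965997 to 12980994, 14998 bp), the RING finger partner of Sce, had no summit near a start but 1 inside and 2 downstream. The inside peak, 12975482 to 12975651 in an intron 5102 bp from a start, had a signal of 266 (152 in replicate 1, 111 in replicate 2). The downstream peaks, 7787 and 6595 bp past the end of the gene, had signals of 484 (279.8 and 200.1) and 265 (145 and 109). All 3 were in both own lists. The 6595 bp peak dropped to 12.9% G or C at the summit from 54.0% in the flanks, place 4 among the 3029 conservative peaks on the arms when counted from the largest drop.

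A strong peak upstream of Psc was in some lists and not in others. At 12985076 to 12985332 on 2R, 4206 bp upstream of Psc and 167 bp from a start of lncRNA:CR44339, the longer thresholded list of the series held a signal of 643 (rank 75 of 3552) and the own list of replicate 1 held 373 (rank 66). The ranked lists of the series and of replicate 2 had no candidate overlapping it, and neither did the conservative list. Of the 99 peaks on the arms among the 100 strongest of the longer list, it was the 1 missing from the conservative list, beside 649 of 3460 over all ranks. The candidates on either side of it were 24423 bp apart in the series' ranked list and 24307 bp apart in replicate 2's. On 2R, 63 gaps were at least that long among 23977 candidates of the series, and 51 among 20482 of replicate 2. In replicate 1's ranked list the candidates on either side of this peak were 23093 bp apart, with 64 gaps as long among 15933 candidates. Of replicate 1's 100 strongest peaks, 2 had no candidate in replicate 2.

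Pc (FBgn0003042; minus strand of 3L, 21306138 to 21318020, 11883 bp), whose chromodomain binds methylated histone H3, had no summit inside. The peak counted within 10 kb, 21304503 to 21304664, lay 1552 bp past its end and 72 bp from a start of CG11309, with a start of CG7632 also within 500 bp. Its signal was 277 with 202 in replicate 1 and 78.3 in replicate 2, a log2 ratio of 1.37, the highest of the set and above the 95 percentile of 0.86 over all peaks. Over Pc itself the ranked lists of the series and of replicate 2 held no candidate, and the 1 candidate of replicate 1 had an IDR of 0.722.

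Sce (FBgn0003330; minus strand of 3R, 27680431 to 27682029, 1599 bp), the ubiquitin ligase of PRC1, had its nearest conservative summit 24869 bp away. The strongest candidate over it had a signal of 35.9 and an IDR of 0.212. A weak peak 3122 bp past its end and 213 bp from a start of Hsdl2 was in the longer list at 72.4 and in replicate 2's own list at 46.6, and not in the conservative list.

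E(z) (FBgn0000629; minus strand of 3L, 10634575 to 10638130, 3556 bp), the histone methyltransferase of PRC2, had 1 peak, at 10637883 to 10638134. Its signal was 416, rank 186, with 229 in replicate 1 and 181 in replicate 2, and it was in both own lists at ranks 181 and 218. The summit, 118 bp from the outer of its 2 starts, lay in the first intron of the transcript from that start, which is printed whole above. A start of Cnep1r2 was also within 500 bp of this summit, so the peak cannot be given to E(z) alone. At 11.9% G or C over 101 bp against 52.0% in its flanks, the E(z) summit had place 8 in that order among the 3029 conservative peaks on the arms.

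The other PRC2 genes had no peak of their own. esc (FBgn0000588; minus strand of 2L, 11827204 to 11829405, 2202 bp), a subunit that stimulates the methyltransferase, was 101111 bp from the nearest conservative summit, and its strongest candidate was at 35.7 (IDR 0.636). Su(z)12 (FBgn0020887; minus strand of 3L, 19918242 to 19923462, 5221 bp), a subunit that the enzyme needs for activity, had a strongest candidate of 34.8 (IDR 0.631). The peak counted for it lay 5155 bp upstream and 109 bp from a start of CG8004, with a start of RhoGDI also near. It had the lowest signal of the set, 65.7, and was in neither own list.

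Of the genes outside both complexes, pho (FBgn0002521; minus strand of chromosome 4, 1172469 to 1181628, 9160 bp), which encodes a DNA-binding protein that recruits Polycomb complexes, had no candidate in any ranked list. Chromosome 4 (1348131 bp) had only 33 of the 126482 candidates on the arms in the series' ranked list. It had 40 of 85152 in replicate 1, 24 of 105103 in replicate 2, and 1 of the 3029 conservative peaks. Scm (FBgn0003334; minus strand of 3R, 9633359 to 9637611, 4253 bp), which encodes a protein that joins PRC1 through its own assembly domain, had a strongest candidate of 32.6 (IDR 0.673). Its counted peak, 6103 bp past its end and 65 bp from a start of CG8319, with a start of CG9427 also near, had a signal of 71.1 and was in neither own list.

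For the peaks in both own lists, the log2 ratio of replicate 1 to replicate 2 gives the agreement. Over the 10 peaks the median was 0.43 and the range -0.05 to 1.37, with replicate 1 higher at 9 and replicate 2 at 1, the 160.1 peak of ph-p. Over all 1701 such peaks (56.2% of the 3029 on the arms) the median was 0.23 with an SD of 0.39. Replicate 1 was thus the higher at the median of the whole list too.

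**Figure D4:**
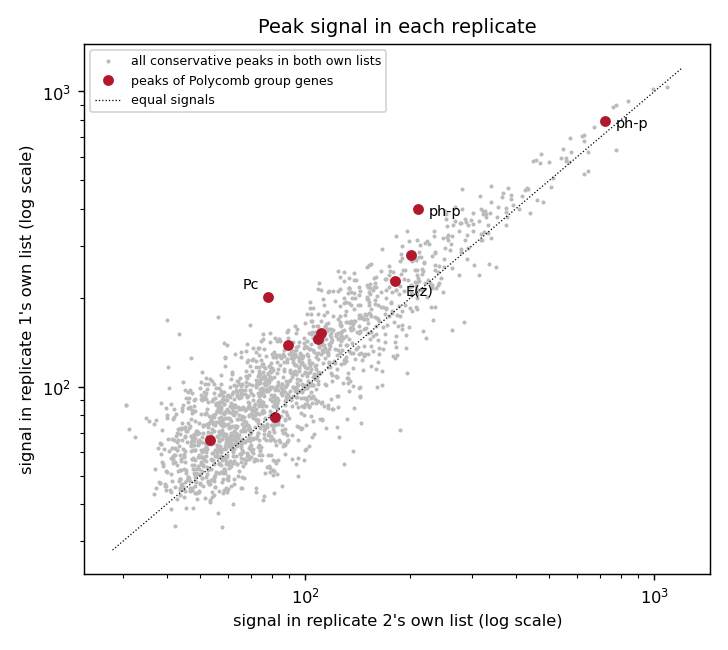
Signal in replicate 1's own list against replicate 2's own list, both on log scales, for the 1701 conservative peaks in both. The 10 peaks in or within 10 kb of the Polycomb group genes are in red, and the dotted line is where the signals are equal. The peak counted for Pc (202 against 78.3), which lies outside that gene and 72 bp from a start of CG11309, and the second ph-p peak (399.6 against 211) lie farthest above the line among them.

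The summits shared a low GC content that was also a feature of the whole list. Over 101 bp at the summit the 14 peaks had a median of 28.7% G or C, from 11.9% to 46.5%, and 13 of 14 were below their flanks, 300 bp to either side, with a median difference of -19.6 percentage points. Over the 3029 conservative peaks on the arms the median was 31.7%, the median difference -12.9 points, and 81.1% were below their flanks. The 1 exception in the set was the weak ph-p peak of 66.7, at 46.5% against 41.6%. The strongest ph-p peak had 30.7% against 51.0%.

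**Figure D5:**
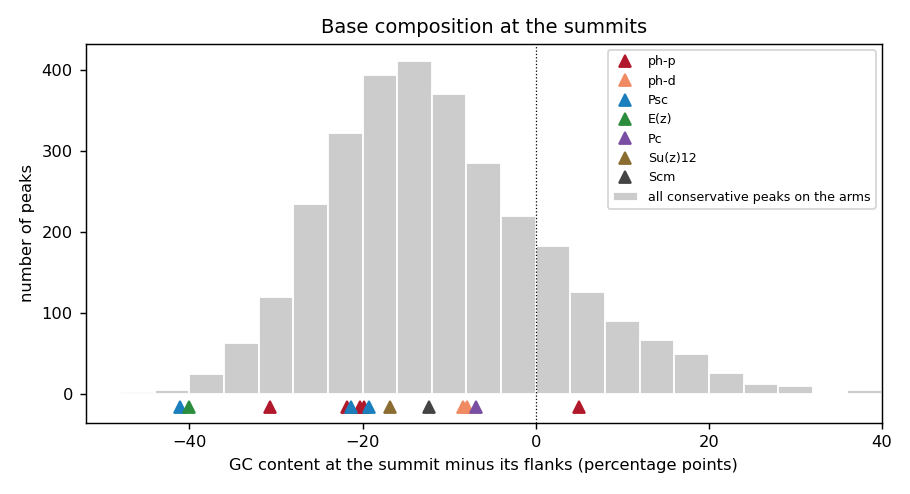
Number of conservative peaks by the difference in GC content between the summit and its flanks, in percentage points. Triangles under the axis are the 14 peaks in or within 10 kb of the Polycomb group genes. 13 of the triangles stand left of 0, with a peak downstream of Psc at -41.1 and the E(z) peak at -40.1 farthest left.

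Short motifs were counted on both strands in 301 bp around each summit. GCCAT, the core of the sites that the pho protein binds, was in 4 of the 14 windows, against 39.6% of all conservative peaks and 42.7% of 19275 windows at annotated starts. GAGAG, bound by GAGA factor, was in 5 of 14 against 35.5% and 33.6%, and the homeodomain core TAATTA in 6 of 14 against 22.3% and 15.8%. TATCGATA, a promoter element, was in 1 of 14 against 4.03% and 7.09%. The windows of the 1512 and 603 peaks of ph-p held none of the 4 motifs. The Psc intron window held 2 matches each of GCCAT and GAGAG, and that upstream of ph-d held 3 of TAATTA. A match is a description of the letters and no evidence of binding.

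Outside these 10 genes, 2 of 22 other Polycomb pathway genes (9.09%) had a conservative summit at most 500 bp from a start, against 12.6% of all protein-coding genes. They were Sfmbt, the partner of the pho protein on DNA, at 134 (64.8 in replicate 2's own list, absent from replicate 1's, with starts of CG43925 and CG5439 also near), and lolal at 70.1, in neither own list. Of 19 trithorax group genes and other antagonists of Polycomb silencing, a list without the Brahma complex, 5 (26.3%) had one, and 3 of 19 had one in both own lists against 8.26% of all protein-coding genes. These 3 were Gcn5, a histone acetyltransferase gene that shares its peak with ver, at 270.2 (151 and 122), Trl, which encodes GAGA factor, at 187 (102 and 76.7), and skd, a Mediator subunit gene that shares with Pdss2, at 156 (76.2 and 83.7). The other 2 were trr at 81.0, with mRpL16 also near, and Dpy-30L1 at 79.9, with EMC3 also near. None of 25 genes known as targets of Polycomb silencing had such a summit (0 of 25), and 3 of 25 had one inside, against 8.61% of all protein-coding genes.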

How the data were processed

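Peak lists of 2 biological replicates of 1 group were used. Per the deposited listings, the authors made them from filtered alignments and a control on dm6; the aligner, peak caller and depth were not given in the sources used here. The deposited signal of a peak is the authors' value against a control, on a scale not stated, so no error beyond the replicates' values could be given. The deposited summit offset (another unit, in bp) was added to the peak's start to give the summit. The deposited ranked lists give −log10 of the global IDR, which was turned back into the IDR.

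The members and gene lists were chosen with earlier results of these data known. Starts came from the Ensembl 115 annotation of the same genome release. A summit was counted within 500 bp of a start, inside a gene or within 10 kb of it, and peaks were matched between lists by an overlap of at least 1 bp. Genes named are the 10 members, genes sharing their peaks, and the genes of 3 pathway lists with a start peak. 3 list symbols were updated after the files were read. GC content was taken over 101 bp. ph-p and ph-d were aligned with BLAST 2.17.0 at an E-value of 1e-05. Peak assignment was tested on simulated data. Python 3.11.15 with pandas 2.3.3, NumPy 2.4.6 and matplotlib 3.10.9 was used. No test was made, since 1 group gives none between conditions. P-values are therefore absent.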

Additional observations from a re-analysis of the deposited data

How the results depend on the processing

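Counts of genes with a summit within 500 bp of a start stayed at 2 to 3, inside the gene at 3 to 4 and within 10 kb at 5 to 7, in the longer thresholded list, in each replicate's own list, at an IDR of 0.001 or less (1659 of 3029 peaks on the arms) and at the other distances tried. Within 250 bp, however, ph-p was counted only through its 66.7 peak, which was in neither own list, and ph-d through its 76.5 peak, absent from replicate 2's. The share of all protein-coding genes moved too, from 8.33% to 14.9% near a start and from 5.32% to 9.51% inside, and 5 of 10 stood against 35.96% within 5 kb and 7 of 10 against 66.3% within 20 kb. Genes with a peak in both own lists fell from 2 to 1 within 250 bp, where ph-p is no longer counted, and rose to 3 within 1000 bp. The share of all protein-coding genes under this rule was taken at 500 bp only (8.26%). Within 10 kb the share was not taken for the other lists, so those counts have none to be read against. The ph-p minus ph-d difference was 1435 in the conservative list and 749.5 without replicate 2. Those values are on the scales of different lists, so the size of the change cannot be read. Without replicate 1 the difference had no value, since replicate 2's own list has no peak at the ph-d start. With the ranked lists, chosen after seeing the data, it was 749.5 in replicate 1 and 689.6 in replicate 2. The sensitive alignment was also chosen after seeing the data. No paired analysis was possible because there is 1 group. Depth is unknown, so the absence of a peak shows only that none passed the authors' threshold.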

Other observations

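Polycomb pathway and trithorax genes with summits inside the gene, at any distance from a start, included Trl with 3, the strongest at 841 (rank 36). Another was trx with 2, the strongest at 160.0. kis had 1, at 221. jing, psq and fs(1)h had summits of at most 81.0, 85.2 and 82.3. Among known targets of Polycomb silencing, hth, a gene of 132008 bp, had 4 summits, the strongest at 197, inv had 2 (the strongest at 112.5) and Doc1 had 1 at 78.3.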
